A study of Caenorhabditis elegans with 6 samples.

Results

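The loci described here are 85 of the 46761 features counted in 3 small RNA classes of Caenorhabditis elegans: annotated loci that carry only a clone-based sequence name, such as T05E12.10, and hold signal of the 26G class. They were chosen by measured values: a mean over the 6 libraries of at least 10 normalized counts in the 26G class, a mean below 2000 in the 22G class, and a 22G ratio of High to Low between 0.5 and 2, with 1 count added to each mean. Of 19922 loci with a clone-based name, 201 had a mean 26G signal of at least 10. The 22G ratio was below 0.5 in 98 of these and above 2 in 1, and the 22G mean was 2000 or more in 14. A further 3 met every limit and were left out by name, among 8 loci that the rule sets aside. The 26G level, the 22G level and the 22G difference of the 85 loci are therefore descriptions, whereas the rule did not use the 26G difference between High and Low or the 21U values. The 26G difference is still not independent of the 22G ratio limit, which compared the same High and Low libraries. Without that limit the median 26G difference was lower, as given in the closing section.

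High and Low worms were gravid adults of strain BCN1050, an N2-background unc-119(ed3) mutant that carries the integrated transgene crgIs1002: mCherry driven by the promoter of daf-21, the Hsp90 gene, with the unc-54 3′ UTR, and a wild-type unc-119 copy. Both groups share this mutation and transgene. The grandparents (P0) of High worms had lived at 25 °C and those of Low worms at 16 °C, and each group has 3 libraries. At the L4 stage the P0 were placed at 20 °C, with 12 on a plate, and their F2 descendants grew for 72 hours at 20 °C, 1000 per plate, before RNA was taken. Each library is a pool of whole worms, so fewer cells of a type and fewer small RNAs per cell cannot be told apart. The submitters call the libraries biological replicates. The p-values given here rest on the spread between these 6 libraries, which the limma fits share in part across the tested features of a class.

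26G RNAs are primary endogenous siRNAs that begin with a guanosine, made by the RNA-dependent RNA polymerase RRF-3 together with Dicer and the ERI proteins. One set is bound by the Argonaute ERGO-1 in oocytes and embryos and is known for targeting duplicated genes and pseudogenes, and another is bound by ALG-3 and ALG-4 during spermatogenesis. Both lead to secondary 22G RNAs, made directly on the target transcript by other RNA-dependent RNA polymerases and bound by worm-specific Argonautes. 21U RNAs are the piRNAs of the worm, bound by PRG-1.

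Low replicate 1 stood apart from the other 5 libraries in the 26G class and is named wherever a value rests on it. Its 26G class held 57142 normalized counts, against 18314 in Low replicate 2, 25760 in Low replicate 3 and 17491 to 20593 in High, while its 22G total was close to the others. Its 21U total was also the highest, at 59360 normalized counts against 41430 to 45567 in the other 5 libraries. The recovered 26G reads numbered 18704 to 22670 in High and 23974 to 37706 in Low. Among the 272 features with a mean 26G signal of at least 5 normalized counts, the median value of Low replicate 1 was 2.47 times the mean of the other 5 libraries. Over the 85 loci the median was 1.64 times, and over the other 187 tested features it was 4.74 times. The 22G ratio limit left out loci whose Low 22G mean was far above High, so the selection may have set this contrast, which was not tested. The column header gives Low replicate 1 a library number outside the run of numbers of the other 5. What the number stands for was not given in the sources used here, and its part in the results was not tested.

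By their position in the Ensembl release 115 annotation of WBcel235, the 85 loci fell into 2 main kinds. A first kind of 42 loci were short noncoding RNA genes on the strand opposite a structural RNA gene: 34 lay antisense to a tRNA gene, 5 to a snRNA gene, 2 to a snoRNA gene and 1 to a rRNA gene. Structural RNAs are the abundant noncoding RNAs of translation and splicing: tRNAs carry amino acids to the ribosome, snRNAs form the spliceosome, and snoRNAs guide the modification of other RNAs. The other kind were 42 loci with no such RNA annotated opposite them, of which 21 were protein coding, 11 pseudogenes, 5 noncoding RNAs, 2 lincRNAs, 1 a miRNA gene, 1 a snoRNA gene and 1 unmatched in the annotation. The remaining locus, F02D10.13, had no tRNA annotated against it but carried the same 26G profile as 4 loci that did. This grouping was made after the values had been seen.

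The 34 tRNA-antisense loci each covered 100% of a tRNA gene, and the tRNA features themselves were listed at 0 in the 26G class in all 34 cases. The strand counted and the handling of reads that map to several places were not given in the sources used here. Fragments of the tRNA and RNA antisense to it therefore cannot be told apart. The same holds in all 3 classes for the loci antisense to snRNA, snoRNA and rRNA genes. tRNA and snRNA genes exist in near-identical copies. Of the 85 loci, 39 belonged to 9 near-identical sets, and 26 had exactly the same 26G values as another member. Within a set, each locus was linked to another whose recovered 26G reads differed by at most 3 in every library. Links were sought above a mean 26G signal of 14 normalized counts. Counting each set once leaves 55 loci. The levels of single members of such a set are therefore uncertain, and the sets are described as units.

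The balance of the 26G and 22G classes is given for the tRNA-antisense loci and for the 42 loci with no structural RNA opposite. In the tRNA-antisense loci the 26G signal exceeded the 22G signal at 34 of 34, and its share of the summed 26G and 22G signal was 67.2% to 98.5% with a median of 82.0%. Their mean 22G signal was 0.715 to 38 normalized counts, with a median of 8.99. In the 42 loci with no structural RNA opposite, the 26G signal exceeded the 22G signal at 9, the median share was 11.3%, and the median of the mean 22G signal was 179 normalized counts with a maximum of 1584. Per 100 nt of annotated gene span, introns included, for the loci with an annotated length, the 26G level had a median of 105.5 normalized counts in the tRNA-antisense loci and 5.53 in those with no structural RNA opposite. The 22G level per 100 nt was 9.75 and 18.8. Among the snRNA-antisense loci the 26G share ran from 5.17% at C15F1.14 to 93.5% at H27M09.7. The share was 91.3% at H09I01.4, 17.7% at T19C4.17 and 46.7% at F31C3.15. The limits of the selection acted on both classes, so these are descriptions of the loci chosen.

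**Figure D1:**
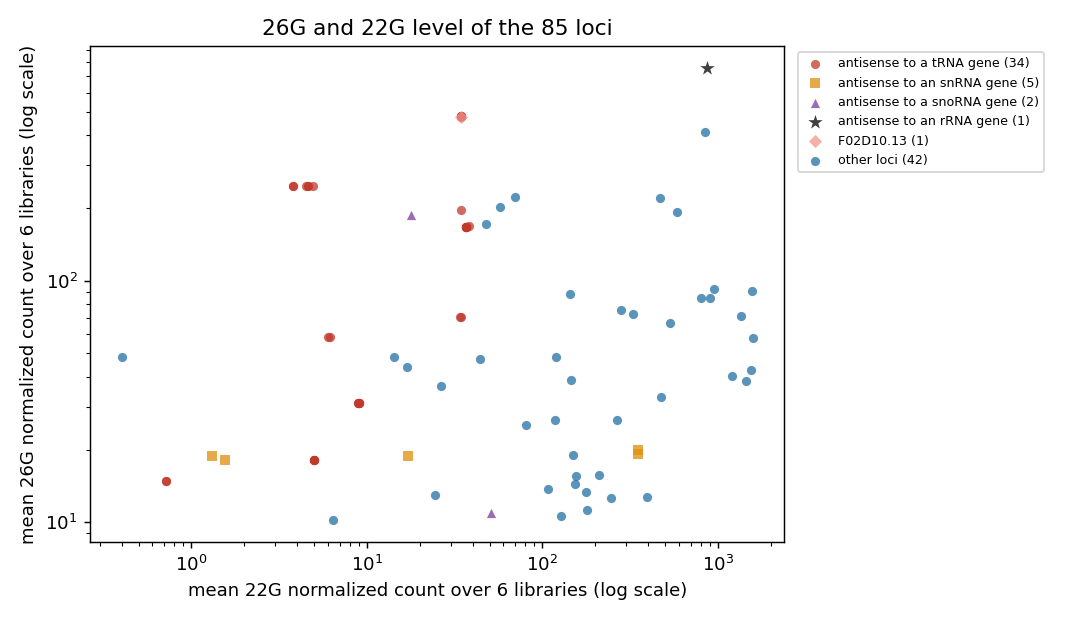
Mean 26G signal against mean 22G signal of each of the 85 loci, in normalized counts over the 6 libraries, both on log scales, with the symbol giving the annotated structural RNA on the opposite strand. The 34 tRNA-antisense loci lie at a 22G mean of 38 or less, while the 42 other loci reach 1584.

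A set of 5 loci, B0285.16, C14B9.13, F22B7.16, F02D10.14 and F02D10.13, carried the highest 26G signal among the tRNA-antisense sets. B0285.16 had 167, 164 and 159 normalized counts in High replicates 1 to 3, against 1820.1, 231 and 328 in Low replicates 1 to 3. The 3 High libraries lay within a narrow range below all 3 Low libraries, and Low replicate 1 lay far above every other library. The mean was 163 ± 4.35 in High and 793 ± 891 in Low (n = 3 each, SD), or 279 in Low without replicate 1. Its log2 difference, High minus Low on the scale of log2 of the normalized count plus 1, was -1.65 ± 0.73 (SE, limma adjusted p = 0.518). Without Low replicate 1 it was -0.75 ± 0.27 (limma adjusted p = 0.202).

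A set of 6 loci held T05A8.9, T05A8.10, C17D12.15, C27A12.12, F49C5.15 and Y37B11A.5, on chromosomes I, II and III. T05A8.9 had 99.1, 62.2 and 90.8 normalized counts in High, against 1008, 109 and 110.1 in Low. All High libraries were below all Low libraries, but by a small margin once Low replicate 1 was set aside. The log2 difference of T05A8.9 was -1.47 ± 0.85 (SE, limma adjusted p = 0.518) and, without Low replicate 1, -0.41 ± 0.27 (limma adjusted p = 0.888). C17D12.15 and F49C5.15 overlap the protein-coding genes spe-9, which is needed in sperm for fertilization, and nimk-1. C17D12.15 had the same 26G values as T05A8.9, and F49C5.15 the same as T05A8.10, and neither T05A8 locus overlaps a protein-coding gene.

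Another set held 7 loci, T22A3.11, F17H10.8, C06B8.15, Y39G10AL.5, Y37B11A.4, R04E5.17 and B0244.13, spread over chromosomes I, III, V and X. T22A3.11 had 168, 118 and 126 normalized counts in High, against 344, 115.3 and 135 in Low. Here the groups overlapped, with Low replicate 3 within the range of High and Low replicate 2 just below it. The log2 difference was -0.36 ± 0.47 (SE, limma adjusted p = 0.644), and its sign turned to 0.12 ± 0.27 without Low replicate 1 (limma adjusted p = 0.888). ZC132.10, a tRNA-antisense locus in no set, also overlapped, with 178, 132 and 139 normalized counts in High, against 461, 122 and 144 in Low.

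The other tRNA-antisense sets were lower. C16D9.12, which shares its profile with C04A2.11, had 16.5, 13.3 and 22.9 normalized counts in High, against 244, 28.3 and 25.4 in Low. The High libraries were again below the Low libraries, with Low replicate 1 at 11.5 times the mean of the other 5. T10B10.13 and C28G1.7 shared 1 profile, in which T10B10.13 had 47.3, 31.98 and 40.1 in High, against 209, 58.1 and 38.1 in Low, so the groups overlapped. C43G2.30 and ZK678.11 had almost all of their signal in 1 library: 3.30, 3.55 and 1.64 in High, against 71.2, 0 and 9.53 in Low. Set against the mean of the other 5 libraries, Low replicate 1 was 19.8 times as high there, the highest ratio among the 85 loci. C43G2.30 and ZK678.11 reached the 26G limit of the selection only through Low replicate 1, since each of the other 5 libraries was below 10. This ratio is therefore not independent of the selection.

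With each set counted once, the tRNA-antisense loci summed to 730.0, 556 and 611 normalized counts in High, against 4251, 705 and 840.4 in Low. The mean was 632 ± 88.9 in High and 1932 ± 2009 in Low (n = 3 each, SD), or 773 in Low without replicate 1, which was 6.17 times the mean of the other 5 libraries. The 34 loci make up 9 units with each set counted once, but the fits count every copy. Fitted log2 differences were negative for 34 of 34 loci, with a median of -0.68, and for 238 of all 272 tested features. Without Low replicate 1 the counts were 24 of 34, with a median of -0.30, and 179 of 272. With TMM scaling they were 27 of 34 and 177 of 272, and with equal 26G totals per library 22 of 34 and 122 of 272. With equal totals and Low replicate 1 left out, they were 24 of 34, with a median of -0.10, and 152 of 272. The tables hold 349 noncoding RNA features antisense to a tRNA gene, the 34 included, of which 130 had a mean 26G signal of at least 10. Together, and with every copy counted, the 349 took 25.0%, 23.4% and 25.6% of the 26G signal in High, against 56.9%, 28.7% and 23.6% in Low. Low replicate 1 was thus high across these features as a whole, while the shares in Low replicates 2 and 3 were close to those in High.

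**Figure D2:**
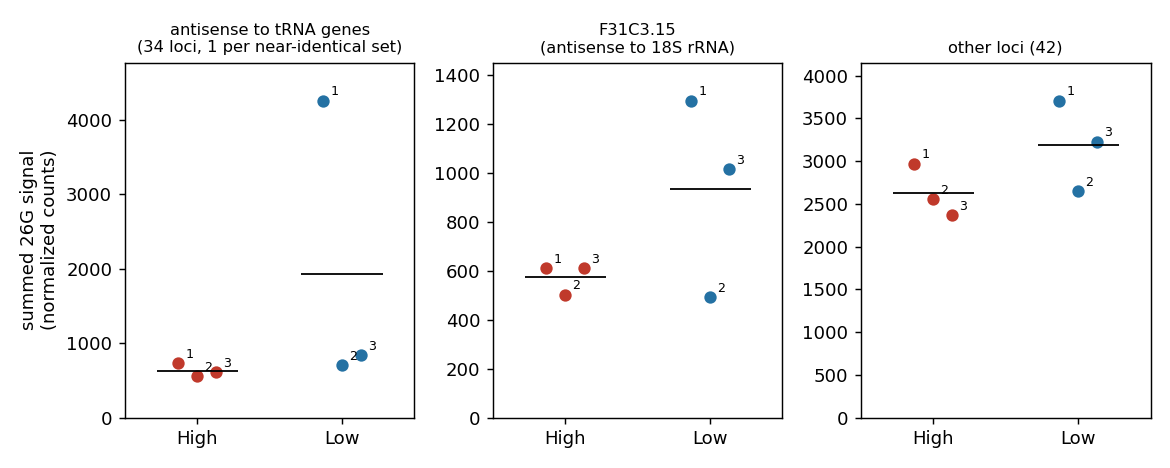
Summed 26G signal in normalized counts, with High on the left and Low on the right of each panel, for the tRNA-antisense loci with each near-identical set counted once, for F31C3.15 and for the 42 loci with no structural RNA opposite. Points are libraries with their replicate number and lines are group means; Low replicate 1 stands at 4251 in the first panel, above 556 to 840.4 in the other 5 libraries.

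F31C3.15, a noncoding RNA on chromosome I antisense to rrn-1.1, the gene of the small-subunit ribosomal RNA, had the highest 26G signal of the 85 loci. It held 611, 503 and 612 normalized counts in High, against 1296, 493 and 1017 in Low. Low replicates 1 and 3 were above High, and Low replicate 2 was below it, so the groups overlapped. The mean was 575 ± 62.9 in High and 935 ± 408 in Low (n = 3 each, SD), and the log2 difference was -0.60 ± 0.40 (SE, limma adjusted p = 0.518), or -0.30 ± 0.30 without Low replicate 1 (limma adjusted p = 0.888). It was also the locus with the most 21U-class signal, at 1268, 1072 and 1148 normalized counts in High, against 2143, 1199 and 1643 in Low. Its 22G signal was 708, 599 and 657 in High, against 1639.7, 591 and 985 in Low, so Low replicate 1 was highest in all 3 classes.

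The 5 snRNA-antisense loci, F08H9.13, F08H9.14, C15F1.14, H27M09.7 and T27E4.15, shared 1 low 26G profile. F08H9.13 had 17.6, 13.3 and 18.8 normalized counts in High, against 21.2, 17.6 and 30.7 in Low. The groups overlapped at their edges, and Low replicate 1 was not the highest library: the ratio of Low replicate 1 to the mean of the others was 0.935 to 1.16 over the 5 loci. C15F1.14 lies opposite sup-39, an snRNA gene. The fitted log2 differences were -0.34 to -0.47, and -0.44 to -0.52 without Low replicate 1, with no adjusted p below 0.615 (limma). With equal totals per library they were positive at 5 of 5, and with Low replicate 1 also left out they were negative at 5 of 5, with a median of -0.28. Their 22G levels were unlike each other, with a mean of 353 normalized counts at F08H9.13 and C15F1.14, 17.2 at F08H9.14, 1.31 at H27M09.7 and 1.56 at T27E4.15.

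H09I01.4, on chromosome IV opposite the snoRNA gene H09I01.2, had the higher 26G signal of the 2 snoRNA-antisense loci. It held 199, 268 and 169 normalized counts in High, against 206, 111 and 166 in Low. The groups overlapped because Low replicate 1 lay within High, and without that library all High libraries were above the other 2 Low libraries. The log2 difference was 0.42 ± 0.37 (SE, limma adjusted p = 0.619), and 0.62 ± 0.27 without Low replicate 1 (limma adjusted p = 0.447). T19C4.17, the other snoRNA-antisense locus, had 11.0, 12.4 and 7.37 in High, against 13.6, 10.7 and 10.58 in Low, and these ranges overlapped.

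Summed over the 42 loci with no structural RNA opposite, the 26G signal averaged 2632 ± 308 normalized counts in High and 3194 ± 528 in Low (n = 3 each, SD), or 2939 in Low without replicate 1. Low replicate 1 was highest at 22 of the 42, but at 1.35 times the mean of the other 5 libraries for their sum it stood much less apart than on the tRNA-antisense loci. The ratio was over 2 at W04C9.8 and H16D19.7 among the 42, at 38 of the 85 loci and at 55.5% of all tested 26G features.

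**Figure D3:**
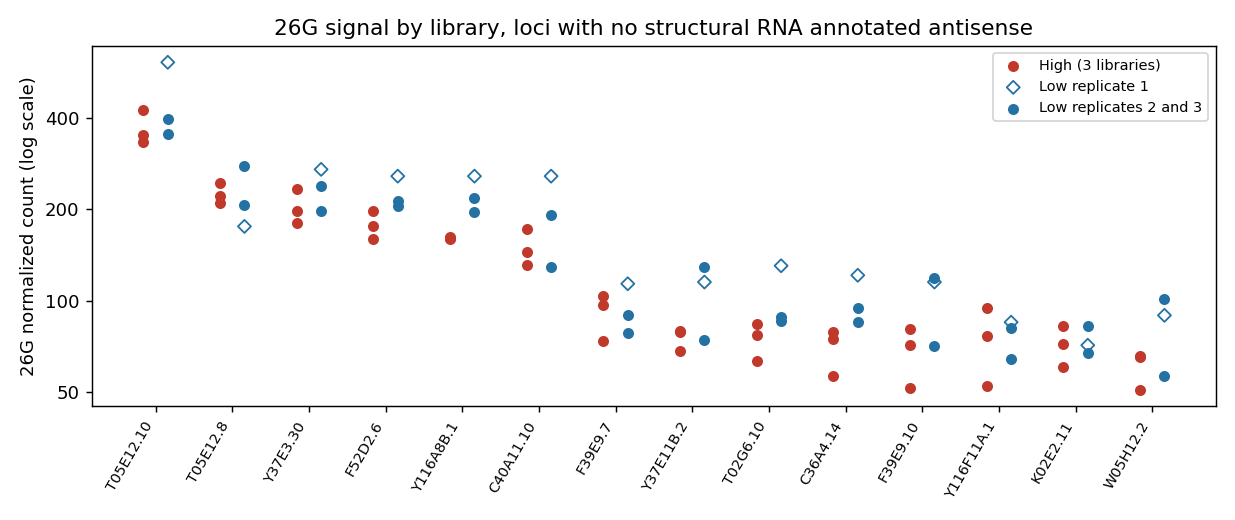
26G normalized count in each library, on a log scale, of the 14 loci with the highest mean 26G signal among the 42 with no structural RNA opposite, with High left of Low for each locus. At Y116A8B.1 the 3 High libraries lie between 159.9 and 162, below the 3 Low libraries at 196 to 258; at T05E12.8 the open diamond of Low replicate 1 is the lowest library.

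T05E12.10 and T05E12.8 lie within 10 kb of each other on chromosome V and led the 42 loci in 26G signal. T05E12.10, annotated as a noncoding RNA, had 427, 353 and 333 normalized counts in High, against 612, 355 and 397 in Low. T05E12.8, annotated as protein coding, had 244, 209.6 and 221 in High, against 176, 206 and 278 in Low. The groups overlapped at both, and Low replicate 1 was the highest library at T05E12.10 and the lowest at T05E12.8. The log2 differences were -0.26 ± 0.33 at T05E12.10 and 0.05 ± 0.31 at T05E12.8 (SE, limma adjusted p = 0.644 and 0.899), and without Low replicate 1 they were -0.03 and -0.09 (limma adjusted p = 0.962 and 0.939). The balance with 22G RNAs also differed between these neighbours: 26G was 32.9% of the summed 26G and 22G signal at T05E12.10 and 76.1% at T05E12.8.

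Y116A8B.1, a protein-coding locus on chromosome IV, had 162, 159.9 and 160.4 normalized counts in High, against 258, 196 and 218 in Low. The High libraries were nearly equal and all below Low, with or without Low replicate 1. Its log2 difference was -0.47 ± 0.29 (SE, limma adjusted p = 0.518) and, without Low replicate 1, -0.36 ± 0.27 (limma adjusted p = 0.888). Its neighbour Y116A8B.98, a noncoding RNA within 10 kb, had 47.3, 41.7 and 36.8 in High, against 66.7, 51.9 and 45.5 in Low, where the ranges overlapped. The 22G signal of Y116A8B.1, which the selection used, ran the other way, with 702, 671 and 693 in High, against 588, 427 and 449.8 in Low.

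F52D2.6, a protein-coding locus on the X chromosome, had 197, 177 and 159.6 normalized counts in High, against 258, 205 and 213 in Low. All High libraries were below all Low libraries. The log2 difference was -0.34 ± 0.29 (SE, limma adjusted p = 0.619), and -0.24 without Low replicate 1 (limma adjusted p = 0.888). T02G6.10 and C36A4.14, pseudogenes on chromosomes I and III, had the same order of groups at a lower level. T02G6.10 had 83.7, 77.3 and 63.0 normalized counts in High, against 130.3, 88.6 and 85.7 in Low, and C36A4.14 had 74.9, 79.1 and 56.5 in High, against 121, 84.8 and 94.2 in Low.

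Y37E3.30, C40A11.10 and Y37E11B.2 overlapped between the groups. Y37E3.30, protein coding on chromosome I, had 233, 197 and 181 normalized counts in High, against 271, 198 and 238 in Low. C40A11.10, annotated as the miRNA gene cel-mir-8199, had 173, 145 and 131 in High, against 258, 129 and 192 in Low. Y37E11B.2, protein coding on chromosome IV, had 79.3, 79.1 and 67.9 in High, against 115.2, 74.1 and 129 in Low, with 1574 normalized counts of 22G signal on average, near the upper limit of the selection. Low was the higher group mean in all 3, and in none were the groups apart.

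F39E9.7, a pseudogene, and F39E9.10, a lincRNA, are neighbours on chromosome II. F39E9.7 had 103, 96.8 and 73.7 normalized counts in High, against 114, 77.9 and 90.0 in Low. F39E9.10 had 80.4, 51.5 and 71.2 in High, against 115.2, 71.0 and 119 in Low. Both overlapped, and 22G signal far exceeded 26G signal at both, with 26G at 8.91% and 8.56% of the sum. The log2 differences were -0.04 ± 0.34 and -0.57 ± 0.37 (SE, limma adjusted p = 0.934 and 0.518), and without Low replicate 1 they were 0.11 and -0.46 (limma adjusted p = 0.901 and 0.888).

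K02E2.12 is annotated as a noncoding RNA of 19 nt next to K02E2.11, a protein-coding locus on chromosome V. K02E2.12 had 48.4, 32.9 and 31.1 normalized counts of 26G signal in High, against 47.0, 28.3 and 45.5 in Low. K02E2.11 had 82.6, 71.9 and 60.6 in High, against 71.2, 67.2 and 82.6 in Low. The groups overlapped at both. A noncoding RNA of at most 30 nt was annotated on the opposite strand of K02E2.11, Y37E3.30, F39E9.7 and Y37E11B.2, which is 4 of the 34 protein-coding, pseudogene or lincRNA members, or 11.8%. The same was true of 0.122% of the 11469 annotated loci of these biotypes with a clone-based name, and of 0.334% of the 4193 among them with a mean 22G signal of at least 5.

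C05D2.15, annotated as a snoRNA on chromosome III, was unlike the other 41 in having almost no 22G signal. It held 55.05, 42.6 and 42.6 normalized counts of 26G signal in High, against 57.6, 45.1 and 47.6 in Low. Its mean 22G signal was 0.401 normalized counts, so that 99.2% of the summed signal was of the 26G class, the highest share among the 85 loci. The log2 difference was -0.10 ± 0.33 (SE, limma adjusted p = 0.869), and 0.002 without Low replicate 1 (limma adjusted p = 0.996).

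Several of the loci with lower 26G signal had larger fitted differences, with more spread between libraries. C35D6.3 had the largest positive fitted 26G difference, 0.80 ± 0.73 (SE, limma adjusted p = 0.619), with 9.91, 12.4 and 13.1 normalized counts in High, against 1.52, 7.64 and 16.9 in Low. The difference rested on Low replicate 1, which was lowest here, and was 0.03 ± 0.43 without it. H16D19.4 and H16D19.7, pseudogenes within 10 kb on chromosome I, had fitted differences of opposite sign, 0.44 ± 0.54 and -0.81 ± 0.53 (SE, limma adjusted p = 0.644 and 0.518), or 0.62 and -0.41 without Low replicate 1 (limma adjusted p = 0.888 for both). H16D19.4 had 19.8, 8.88 and 17.2 in High, against 13.6, 15.3 and 5.29 in Low, and H16D19.7 had 8.81, 4.44 and 9.82 in High, against 24.2, 10.7 and 9.53 in Low. H16D19.7 reached the 26G limit of the selection only through Low replicate 1. W04C9.8, a noncoding RNA, had 35.2, 33.8 and 22.9 in High, against 77.3, 41.3 and 52.9 in Low, which did not overlap. Its log2 difference was -0.86 ± 0.40 (SE, limma adjusted p = 0.518) and -0.62 ± 0.31 without Low replicate 1 (limma adjusted p = 0.695).

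The 34 members annotated as protein coding, pseudogene or lincRNA had a median gene span of 1084 nt and a median of 3 exons, against 1731 nt and 5 exons over the 11469 annotated loci of these biotypes with a clone-based name. Pseudogenes made up 32.4% of the 34, against 11.2% of the clone-named loci. The X chromosome held 26.5% of the 34, against 13.9% of the clone-named loci. Another member lay within 10 kb of 20 of the 42 loci with no structural RNA opposite, and of 32 of all 85. No test was made of these shares.

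The comparison of High with Low asks whether the grandparents' temperature was followed by different 26G RNA levels in F2 worms. At the threshold of 0.05 on the adjusted p, limma-trend called 0 of the 272 features in the fit (0%), and so 0 of the 85 loci. At an unadjusted p under 0.05 there were 3 features (1.1%) and 0 of the 85 loci, and the smallest adjusted p among the 85 was 0.518. On the recovered reads, edgeR called 0 features, with 13 of the 85 loci at an unadjusted p under 0.05, among 25 of all 272 features (9.19%). Of the 13, 12 were tRNA-antisense loci and 1 was F02D10.13, with near-identical copies counted apart. DESeq2 called 12 of the 272 (4.41%), of which 7 were among the 85 and all lower in High. They were C16D9.12 and C04A2.11, and the set of B0285.16, C14B9.13, F22B7.16, F02D10.14 and F02D10.13, so 2 near-identical profiles. DESeq2 gave no adjusted p to part of the features, which were therefore neither called nor passed over by a test. Among these were the set of T05A8.9, with a DESeq2 log2 difference of -2.28 at T05A8.9, and loci of lower signal such as W04C9.8. At B0285.16 the DESeq2 log2 difference was -2.28 (DESeq2 adjusted p = 0.0421). Both profiles were far highest in Low replicate 1. It stood at 1820 normalized counts at B0285.16, against 231 and 328 in Low replicates 2 and 3. At C16D9.12 it stood at 244, against 28.3 and 25.4. DESeq2 was not repeated without Low replicate 1. edgeR without that library gave a log2 difference of -0.77 at F02D10.13, in the set of B0285.16, and called 0 of the 85.

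Without Low replicate 1, limma-trend called 1 feature (0.368%), which was not among the 85. At an unadjusted p under 0.05 it had 8 of the 85, of which 1 was higher and 7 lower in High, against 6.99% of all features. Of the 7, 5 were near-identical copies in the set of B0285.16, and the others were F31A9.2 and W04C9.8. The higher locus was H09I01.4. The smallest adjusted p among the 85 was 0.202. With equal 26G totals per library as well, 8 features were called (2.94%), 6 of them among the 85. H09I01.4 was then higher in High, by 0.82 ± 0.17 on the log2 scale (SE, limma adjusted p = 0.000529), and the set of B0285.16 was lower, by -0.54 ± 0.17 at C14B9.13 (limma adjusted p = 0.0434). edgeR without Low replicate 1 called 1 feature and 0 of the 85. Without Low replicate 1 the Low group has 2 libraries, and the spread is pooled with that of High. In these limma fits the spread was also shared across features, so the SE followed the signal level. On the authors' scale it was 0.266 at both H09I01.4 and Y116A8B.1. The High libraries ran from 169 to 268 at H09I01.4 and were nearly equal at Y116A8B.1. These limma p-values therefore rest little on the spread of the single locus.

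The 3 High libraries lay below the 3 Low libraries at 20 of the 85 loci, against 10.7% of all tested features. Of the 20, 13 belonged to the sets of B0285.16, T05A8.9 and C16D9.12, and the other 7 were F52D2.6, Y116A8B.1, T02G6.10, C36A4.14, W04C9.8, ZC132.4 and Y7A9A.79. Without Low replicate 1 the count was 22, against 12.1%, with F31A9.2 and F55C9.5 added. High lay above Low at 0 of the 85, against 0.735%, and at 1, H09I01.4, without Low replicate 1, against 1.47%. F31A9.2, F55C9.5 and H09I01.4 did not pass the adjusted threshold in the fit without Low replicate 1 on the authors' scale. With 3 libraries against 3, an exact permutation test of a single locus cannot give a two-sided p below 0.1.

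The median 26G log2 difference of the 85 loci was -0.44, against -0.53 over all tested features, with 78 of 85 and 238 of 272 negative. Without Low replicate 1 the medians were -0.28 and -0.22, with 62 of 85 and 179 of 272 negative. The sign of these medians depended on the scaling between libraries. With TMM scaling the medians were -0.04 for the 85 and -0.13 for all features, and with equal totals 0.20 and 0.09, shifts of the same kind in both. Among the 42 loci with no structural RNA opposite, 36 differences were negative with a median of -0.32, 30 without Low replicate 1, 13 with TMM scaling, 5 with equal totals, and 22 with equal totals and Low replicate 1 left out, where the median was -0.01. Of all 272 tested features, 177 were negative with TMM scaling, 122 with equal totals, and 152 with Low replicate 1 also left out. With every near-identical copy counted, the 85 loci together held 34.2%, 33.2% and 31.8% of the 26G signal in High, against 43.5%, 35.3% and 32.4% in Low.

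**Figure D4:**
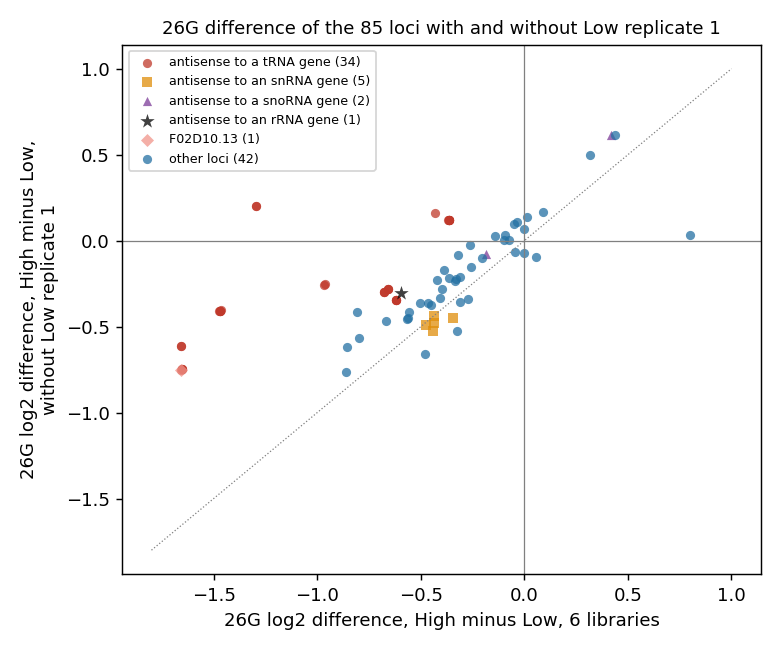
Fitted 26G log2 difference, High minus Low, of each of the 85 loci with 6 libraries (horizontal axis) and without Low replicate 1 (vertical axis), with symbols giving the structural RNA on the opposite strand and a dotted line of equal values. The tRNA-antisense sets at -1.66 to -1.46 move to -0.75 to -0.40, while most of the 42 other loci stay near the line.

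The 22G values of the 85 loci were limited by the selection and are given without a test. They summed to 19821 ± 966 normalized counts in High and 20756 ± 1908 in Low (n = 3 each, SD), and to 19675 in Low without replicate 1. The 42 loci with no structural RNA opposite held most of it, with 17920 ± 878 in High and 18049 ± 735 in Low. The 22G median log2 difference was -0.22 over the 74 of the 85 loci that passed the minimum, against 0.01 over all 9402 features that did, and 0.02 without Low replicate 1. At B0285.16 the 22G signal was 29.7, 20.4 and 32.7 in High, against 68.2, 24.4 and 30.7 in Low. At T22A3.11 it was 30.8, 29.3 and 22.1 in High, against 95.5, 20.6 and 29.6 in Low, so Low replicate 1 was high on tRNA-antisense loci in this class too, by a median of 2.92 times the mean of the other 5 libraries.

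The 22G ratio limit of 0.5 fell inside 1 near-identical profile. T10B10.13 and C28G1.7 were just inside it at 0.501 and 0.507, while K09C8.11, with the same 26G profile, was just outside at 0.499, among 11 loci of that profile that were left out. At the 26G limit, C35D6.3 at 10.3, Y7A9A.79 at 10.63 and T19C4.17 at 11.0 normalized counts were inside, and F31E9.11 at 9.51, ZK402.2 at 9.43 and F52G3.4 at 8.50 outside. At the 22G limit, ZK402.3 at 1584, Y37E11B.2 at 1574 and ZK402.5 at 1551 were inside, and CD4.8 at 2211, W04B5.1 at 2283 and E01G4.7 at 2816 outside. At the upper ratio limit, Y116A8B.1 at 1.41 was the nearest inside and F10D2.15 at 2.11 outside.

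In the 21U class, 23 of the 85 loci reached the minimum for a test, 18 of them antisense to structural RNA genes. F31C3.15 led with a mean of 1412 normalized counts, followed by H09I01.4 at 279, the 5 snRNA-antisense loci at 165 to 173 and the set of T22A3.11 at up to 82.2. H09I01.4 had 251, 281 and 322 in High, against 242, 249 and 328 in Low, so the groups overlapped. T10B10.13 and C28G1.7 had 6.61, 6.22 and 5.73 in High, against 31.8, 12.2 and 15.9 in Low, with all High libraries below all Low libraries, as at 26.9% of the 592 tested 21U features. Their log2 difference was -1.44 ± 0.37 (SE, limma adjusted p = 0.0786), and -1.06 without Low replicate 1 (limma adjusted p = 0.0936). limma-trend called 0 of the 23, with 4 at an unadjusted p under 0.05, and 1 of 592 features (0.169%); without Low replicate 1 it called 0 of the 23 and 5.57% of features. At an unadjusted p under 0.05 these were 20.9% of features with all libraries, and 3 of the 23 and 21.8% of features without Low replicate 1. edgeR called 0.169% of features. DESeq2 called T10B10.13 and C28G1.7, both lower in High (adjusted p = 0.0487), among 11.7% of features, and limma-trend without Low replicate 2 called the same pair, among 3.38% of features. Some of the 592 features, such as ZK402.3, were given no adjusted p by DESeq2.

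Genes of the 26G pathway were read through lists recalled from general knowledge. Of 27 loci recalled as ERGO-1 targets, 10 were among the 85: C40A11.10, C44B11.6, F39E9.7, F39F10.4, F52D2.6, F55C9.3, F55C9.5, H16D19.4, Y37E11B.2 and ZK380.5. In the 26G class 17 of the 27 were tested and limma-trend called 0, with 0 at an unadjusted p under 0.05 and a median log2 difference of -0.32 (-0.17 without Low replicate 1). In the 22G class 25 were tested, and limma-trend called 6 lower and 0 higher in High, against 8.3% of all features. Without Low replicate 1 it called 5 lower and 0 higher. The selection limited the 22G ratio of the 10 that are members, and the list was recalled with earlier results of these data known. Of 13 genes for proteins that make or bind 26G RNAs, such as ergo-1, rrf-3 and eri-1, 0 reached the minimum in the 26G class, the highest being eri-6 at 3.09 normalized counts, and 11 were tested in the 22G class, where limma-trend called 0, with 0 at an unadjusted p under 0.05, against 8.3% of all features called. Of 82 sperm and spermatogenesis genes, 38 were at 0 in the 26G class, and the list summed to 13.1 to 20.9 normalized counts in High and 8.47 to 27.3 in Low. The 10 oocyte and embryo genes summed to 1.101 to 3.55 in High and 1.53 to 3.03 in Low, and the 8 intestine genes were at 0 in all libraries.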

How the data were processed

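The values deposited for the 22G, 26G and 21U classes are a signal: the reads of a feature in a library, divided by the authors by a size factor of that library (called normalized counts here). Per the submitters' processing notes, the tools included DESeq2 1.8.1, featureCounts 1.4.6, Bowtie 1.1.1 and cutadapt 1.7.1. Per the labels' protocols, RNA was treated with phosphatase and polynucleotide kinase before TruSeq small RNA library preparation. The genome build, annotation, class definitions, strand and treatment of multiply mapping reads were not given in the sources used here. Coordinates are therefore not printed, and no sequence was used.

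Dividing each library by its smallest step gave whole reads for 100% of values, within 0.01 reads: 1380170 to 2685999 per library in the 22G class, 18704 to 37706 in the 26G class and 37630 to 59648 in the 21U class. Of 46761 features, 45375 (97.0%) matched Ensembl release 115 by name, and 84 of the 85 loci did.

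Features with a mean of at least 5 normalized counts entered limma-trend fits (limma 3.58.1 in R 4.3.3) of log2(normalized count + 1). The difference is High minus Low, tests are two-sided, and p-values were adjusted by Benjamini-Hochberg over each class, with a threshold of 0.05. All 272, 9402 and 592 tested features of the 26G, 22G and 21U classes entered the fits. Count tests on the recovered reads used edgeR 4.0.16 (quasi-likelihood) and DESeq2 1.42.0 with the authors' size factors. The limma and edgeR fits, but not the DESeq2 fit, were repeated without Low replicate 1. Also tried were TMM scaling and equal class totals, a minimum of 20 or none, pseudocounts of 5 and 0.5, the replicate number as a block, no variance trend, leaving out each library, merging identical features, and other selection limits. The fits were tested on simulated data.

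The loci and gene lists were chosen with earlier results of these data known, and the structural RNA groups and near-identical sets after the values were seen. The named loci are the 12 with the highest mean 26G signal, the 5 largest differences of each sign, those tested in the 21U class, those nearest each limit, those called, and those sharing values or a clone name; the text gives values for part of them. C05D2.15, F31A9.2, T02G6.10, C36A4.14, W04C9.8, ZC132.4 were chosen after their values were seen. Figures used Matplotlib 3.10.9.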

Additional observations from a re-analysis of the deposited data

How the results depend on the processing

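The median 26G log2 difference of the 85 loci, -0.44, was -0.036 with TMM scaling, 0.20 with equal totals per library, -0.084 with Low replicate 1 left out and equal totals, and -0.77 when no limit was set on the 22G ratio, which gave 184 loci; with 1 library left out it ranged from -0.66 to -0.28. The summed 26G signal of the 85 loci had a log2 ratio of High to Low of -1.08 with every near-identical copy counted. With each set counted once it was -0.62, or -0.19 without Low replicate 1. With every copy counted it was -0.17 with equal totals and -0.035 with Low replicate 1 also left out. With 1 library left out it then ranged from -1.41 to -0.25, the last without Low replicate 1. The number of 26G features called, 0, was 12 with DESeq2, 8 with Low replicate 1 left out and equal totals, 1 with Low replicate 1 left out and edgeR, and 0 to 1 with 1 library left out. Among the 85 these counts were 7 with DESeq2 and 6 with Low replicate 1 left out and equal totals. In the 21U class, leaving out 1 library gave 0 to 2 called loci, the 2 without Low replicate 2, when 20 of 592 features were called, against 33 without Low replicate 1. The cause was not tested in any of these cases.

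For 25 named loci, 469 values were recomputed. Of these, 396 stayed on the same side of the threshold within 1 SE, 69 moved further, 4 passed the threshold anew, and 0 called values changed sign. Fitted values that were not called changed sign in 44 cases, 29 of them under another scaling and 6 without Low replicate 1. Same-numbered High and Low libraries did not deviate together in the 26G class (correlations -0.083, -0.144 and -0.285). In the 22G class the correlations were 0.034, 0.046 and 0.020. Such values cannot show whether libraries of the same number were handled together. The replicate block called 0 of the 85 loci. Groups of 3 libraries are too small to single out a library by a formal rule. The 26G class held at most 37706 reads in a library, which limits the precision at loci near 10 normalized counts.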
